A study of Caenorhabditis elegans with 4 samples.

Results

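The genes described here build the attachments that tie the myofilaments of the body wall muscle of Caenorhabditis elegans, a nematode worm, to the cell membrane and the matrix outside it. They were chosen by name as 9 genes: the integrin genes pat-2 and pat-3, the adaptor genes pat-4, unc-112, pat-6 and unc-97, and deb-1, atn-1 and unc-95. A probe carrying the symbol alone was found for 7 of the 9, with 2 probes for unc-112 and 1 for each of the others, out of 14943 genes with a probe in the series. The genes deb-1 and unc-95 had no such probe and were not analysed here. Every measured member had a value on all 4 arrays.

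RNA from 4 preparations (preps) of wild-type adult worms was set against RNA from a wild-type mixed reference, with 1 two-colour microarray for each prep. On every array channel 2 held the adult RNA and channel 1 that of the reference. The labels give no strain name, treatment or age in days, and they do not say which stages or worms were mixed in the reference. Each value is a log2 ratio. It is read here as adult over reference, which is likely from the channels but is not stated, and if it ran the other way every sign below would turn. No array had its channels swapped, so an effect of the channel on a single gene and a true difference of the adults cannot be told apart.

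A dense body is the anchor of actin filaments in worm muscle and serves both as a Z-disc and as a focal adhesion, while the M-line anchors the myosin filaments. At the base of both lies an integrin, a pair of an alpha and a beta chain that spans the membrane and binds the basement membrane outside. Inside the cell, kindlin, integrin-linked kinase, parvin and PINCH assemble on the integrin, and vinculin and alpha-actinin link the dense body to actin. The Pat genes are named for the mutant phenotype of embryos that are paralysed and arrest when they elongate, and the Unc genes for uncoordinated movement.

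Among the measured members, the alpha integrin gene pat-2, the PINCH gene unc-97 and the parvin gene pat-6 had negative ratios that passed the test, and none had a positive ratio that did. The beta integrin gene pat-3, the integrin-linked kinase gene pat-4, the kindlin gene unc-112 and the alpha-actinin gene atn-1 did not pass it. The test was limma's moderated test of the mean log2 ratio against 0, two-sided, with p-values adjusted over 14935 genes by the Benjamini-Hochberg method. At an adjusted p under 0.05, 44.5% of all genes were called, 21.2% with a negative and 23.2% with a positive ratio. The 3 negative calls among 7 members are to be read against that background, and such a difference in share over so few genes is a description only. At an unadjusted p under 0.05, the same limma fit had the same 3 negative members and 0 positive ones. The share of all genes at that threshold was not taken, so this count has no background. The median of the 7 means was -0.31, beside 0.06 over all genes tested. The labels name no tissue, so the RNA is taken here as that of whole worms. Fewer muscle cells among all cells and less RNA per muscle cell then cannot be told apart.

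**Figure D1:**
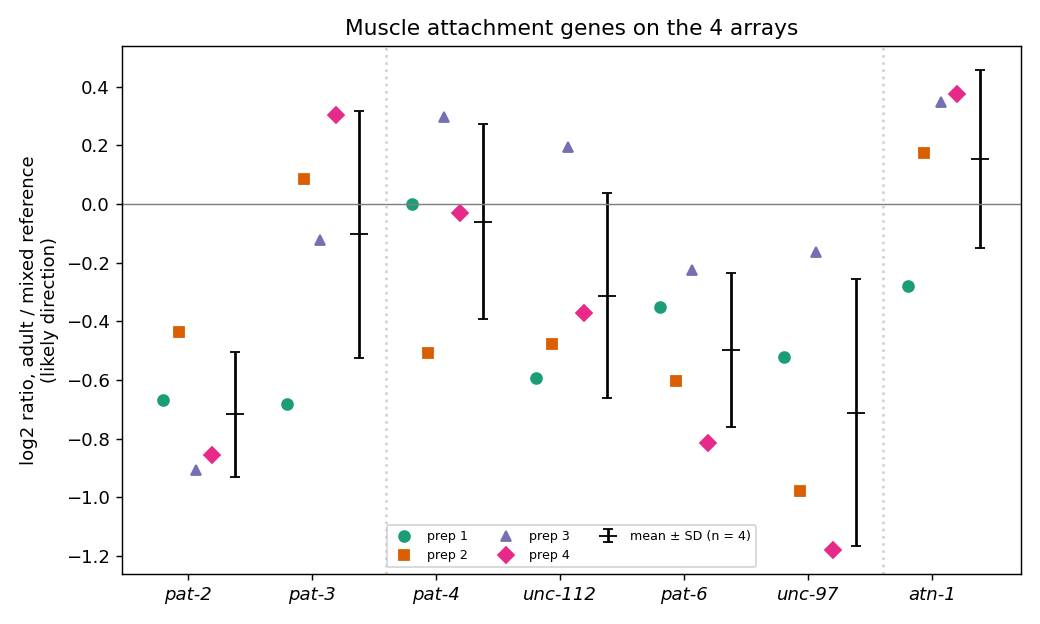
Log2 ratio of the 7 measured muscle attachment genes on each array (y axis), with a symbol for each prep and, in black, the mean with the SD over 4 preps; dotted lines separate integrins, adaptors and the actin linker atn-1. All 4 points of pat-2, pat-6 and unc-97 lie below 0, and those of pat-3, pat-4, unc-112 and atn-1 lie on both sides of it.

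The integrin chains came first in the comparison. The gene pat-2 (F54F2.1, chromosome III) encodes the alpha chain of the muscle integrin, and its log2 ratios were -0.67, -0.44, -0.91 and -0.85 on preps 1 to 4. All arrays were below 0 and lay close together. The mean was -0.72 ± 0.21 (SD, n = 4), a level 1.64-fold lower in adults (limma 95% interval of the log2 ratio -1.05 to -0.38, adjusted p = 0.0051). The gene pat-3 (ZK1058.2, chromosome III) encodes the beta chain, the partner of the alpha chains in this animal, with log2 ratios of -0.68, 0.09, -0.12 and 0.30 on preps 1 to 4. Its low value came from prep 1, and the arrays were split evenly between the signs. The mean of pat-3 was -0.10 ± 0.42 (SD, n = 4; 95% interval -0.52 to 0.31, limma adjusted p = 0.67), and without prep 1 it was 0.09.

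The ratios of both integrin genes were close on prep 1, where pat-2 minus pat-3 was 0.01, and apart on prep 4, where it was -1.16. The ratio of pat-2 was the lower one on 3 of 4 arrays, with a mean difference of -0.61 ± 0.49 on the log2 scale (SD, n = 4). This difference was not tested. The other alpha integrin gene, ina-1, whose product pairs with the same beta chain mainly outside the muscle attachments, had 0.11, 0.09, 0.11 and 0.36 on preps 1 to 4. All 4 values were above 0 but small, with a mean of 0.17 ± 0.13 (SD, n = 4; 95% interval -0.14 to 0.48, limma adjusted p = 0.35).

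The adaptor genes were next. PINCH is a protein of LIM domains that binds integrin-linked kinase, and its gene unc-97 (F14D12.2, chromosome X) had log2 ratios of -0.52, -0.98, -0.16 and -1.18 on preps 1 to 4. All were negative, with prep 3 near 0 and prep 4 the lowest value of any member on any array. Its mean of -0.71 ± 0.46 (SD, n = 4) stands for a level 1.64-fold lower in adults (95% interval -1.15 to -0.28, limma adjusted p = 0.017). The gene pat-6 (T21D12.4, chromosome IV) encodes the actopaxin or parvin of the same complex and had -0.35, -0.60, -0.23 and -0.81 on preps 1 to 4. The arrays fell in the same order as for unc-97, with prep 3 highest and prep 4 lowest. The mean of pat-6 was -0.50 ± 0.26 (SD, n = 4), which is 1.41-fold lower in adults (95% interval -0.85 to -0.15, limma adjusted p = 0.029). Both calls depended on the arrays used. Without prep 2 the limma adjusted p was 0.063 for unc-97 and 0.098 for pat-6, and without prep 4 it was 0.068 and 0.10. The means stayed negative in each case. Over all genes, too, fewer were called without prep 2 (4982) or prep 4 (5233) than with all arrays (6639).

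Kindlin binds the tail of the beta integrin, and its gene unc-112 (C47E8.7, chromosome V) was measured by 2 probes. The first had -0.49, -0.33, 0.22 and -0.33 on preps 1 to 4, and the second had -0.69, -0.62, 0.17 and -0.41. The probes gave the same picture, negative on 3 arrays and positive on prep 3. Their average gave a mean of -0.31 ± 0.35 (SD, n = 4; 95% interval -0.70 to 0.07, limma adjusted p = 0.16). Fitted one by one, the probes had means of -0.23 and -0.39, and neither was called.

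Integrin-linked kinase is a scaffold that joins kindlin, parvin and PINCH. Its gene pat-4 (C29F9.7, chromosome III) had 0.00, -0.51, 0.30 and -0.03 on preps 1 to 4, with a mean of -0.06 ± 0.33 (SD, n = 4; 95% interval -0.44 to 0.32, limma adjusted p = 0.79). The values lay on both sides of 0, and the sign of the mean turned when prep 2 was left out (0.09). Of the members measured within this complex, all 4 adaptor genes had their highest ratio on prep 3, whereas pat-2 had its lowest there. This was not particular to the adaptors. Of the sets described below, integrin partners (-0.14), basement membrane genes (0.09) and fibrous organelle genes (0.24) had their highest array median on prep 3. Sarcomere genes had theirs on prep 4 (0.15). The ratios of prep 3 also had the smallest SD over the probes (0.76, beside 0.84 to 0.92 on the other arrays). Between the binding partners pat-6 and pat-4 the mean difference was -0.44 ± 0.29 (SD, n = 4), with pat-6 lower on 4 of 4 arrays. The kindlin gene unc-112 was lower than pat-4 on 3 of 4 arrays, by a mean difference of -0.25 ± 0.27 (SD, n = 4). Neither difference was tested.

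Alpha-actinin crosslinks actin filaments in the dense body. Its gene atn-1 (W04D2.1, chromosome V) had log2 ratios of -0.28, 0.17, 0.35 and 0.37 on preps 1 to 4 and was the only measured member with a positive mean, 0.15 ± 0.30 (SD, n = 4; 95% interval -0.21 to 0.52, limma adjusted p = 0.46). Prep 1 stood below 0 and the other arrays above it. The gene had the highest ratio of the members on preps 2, 3 and 4, and was second to pat-4 on prep 1.

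Ordered from the lowest mean ratio, the members ran pat-2, unc-97, pat-6, unc-112, pat-3, pat-4 and atn-1. No neighbours in this order were separated on all 4 arrays. Their mean differences lay between -0.01 for pat-2 and unc-97 and -0.21 for pat-4 and atn-1, and 5 of the 6 were smaller than their own SD. The exception was unc-97 against pat-6, at -0.21 ± 0.20 with unc-97 lower on 3 of 4 arrays. The ends of the order were apart, as pat-2 lay below atn-1 on 4 of 4 arrays, by between -1.25 and -0.39. Among all genes tested, 13.5% had a mean below that of pat-2, 13.7% below that of unc-97, 20.3% below that of pat-6 and 56.4% below that of atn-1. With the ratio's sign turned, the shares would be 86.5% for pat-2, 86.3% for unc-97, 79.7% for pat-6 and 43.6% for atn-1.

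Beside the members, 26 other genes of integrin adhesion were listed, of which 22 were tested. The list is not limited to the muscle attachments, since ina-1 is on it. Negative ratios were called for 10 of the 22 and a positive one for 1, beside 21.2% and 23.2% of all genes, and the median of their means was -0.39. Of the 10 negative calls, 6 were made whichever prep was left out, and 4 were lost without at least 1 prep. The calls of uig-1, lim-9, pxl-1, unc-98, lim-8 and mig-15 were among the first, and those of cpna-1, tln-1, tes-1 and nck-1 among the second. In limma, tes-1 had an adjusted p of 0.061 without prep 2 and 0.058 without prep 4, and nck-1 had 0.060 without prep 3.

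**Figure D2:**
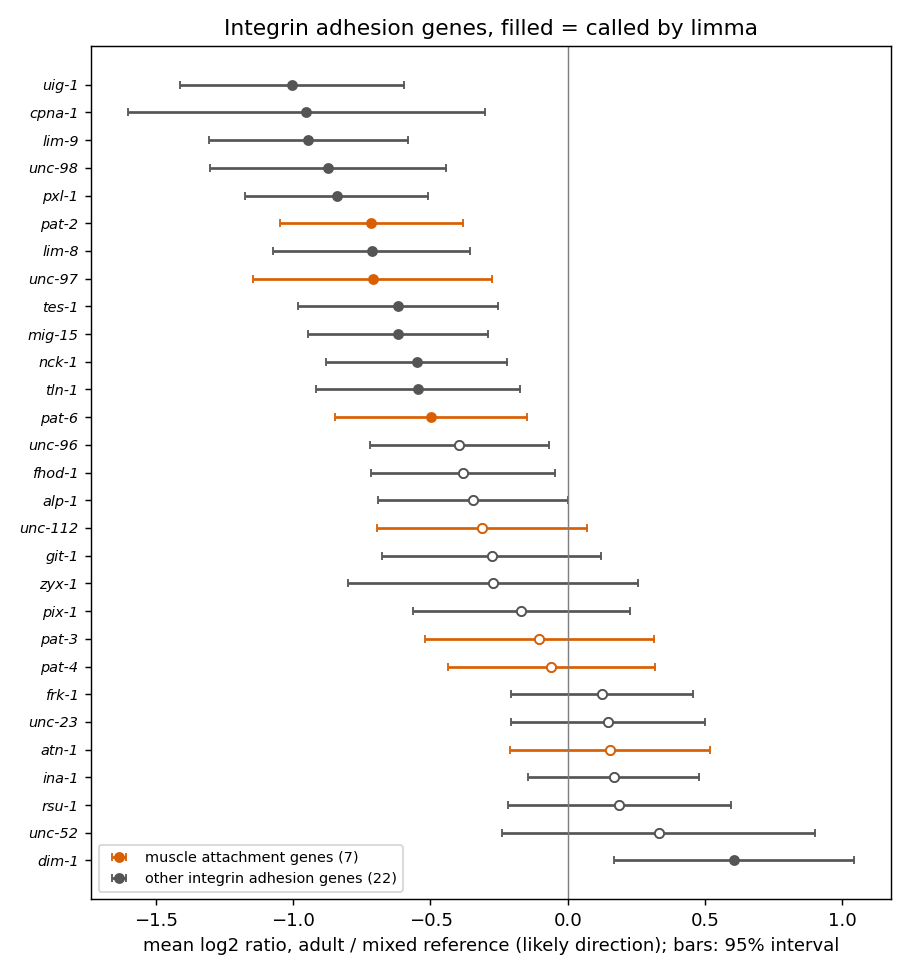
Mean log2 ratio over 4 preps (x axis) with the 95% interval of limma, not adjusted for the number of genes, for the 7 measured muscle attachment genes (orange) and 22 other integrin adhesion genes (grey); filled points were called by limma. The called genes lie below 0 except dim-1.

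Several of these are direct partners of the members. The gene uig-1, an exchange factor found as a binding partner of the kindlin UNC-112, had -1.47, -1.06, -0.48 and -1.01 on preps 1 to 4 and a mean of -1.004 ± 0.40 (SD, n = 4; limma adjusted p = 0.0028), the lowest of the list. The paxillin gene pxl-1 had -0.82, -1.10, -0.57 and -0.87 and a mean of -0.84 ± 0.22 (SD, n = 4; adjusted p = 0.0025). All arrays of both genes were negative. The LIM domain gene lim-9 had a mean of -0.95 ± 0.30 (SD, n = 4; adjusted p = 0.0021), and unc-98, a zinc finger gene whose product binds the PINCH protein UNC-97, had -0.87 ± 0.45 (adjusted p = 0.0066). The genes unc-98, lim-8, mig-15, tes-1 and nck-1 were named after their values were seen.

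The copine gene cpna-1, whose product also lies at the muscle attachments, had -2.02 on prep 1 and -0.07 on prep 4, the widest spread among the partners named here, with a mean of -0.95 ± 0.84 (SD, n = 4; limma adjusted p = 0.026). Without prep 1 the mean was -0.60 (adjusted p = 0.057), without prep 2 it was -0.89 (adjusted p = 0.070) and without prep 3 it was -1.08 (adjusted p = 0.052). Talin ties the integrin tail to actin, and its gene tln-1 had -0.75, -0.74, -0.08 and -0.61 on preps 1 to 4 with a mean of -0.55 ± 0.32 (adjusted p = 0.025). That call was lost without prep 1 (adjusted p = 0.076), prep 2 (0.096) or prep 4 (0.076). The talin ratios had prep 3 nearest to 0, as did those of unc-97 and pat-6.

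Other partners were not called. The zyxin gene zyx-1 had -0.68, -0.86, 0.52 and -0.07 on preps 1 to 4 (mean -0.27 ± 0.63, limma adjusted p = 0.36), and alp-1, of the ALP/Enigma family of dense body proteins, had a mean of -0.35 ± 0.25 (adjusted p = 0.095). The perlecan gene unc-52, which encodes a basement membrane proteoglycan required at these attachments, had -0.11 and -0.42 on preps 1 and 2 and 0.98 and 0.87 on preps 3 and 4. Preps 1 and 2 thus stood apart from preps 3 and 4, whose titles carry one date, and the mean was 0.33 ± 0.70 (SD, n = 4; adjusted p = 0.31). The only positive call, dim-1, which encodes an immunoglobulin domain protein near the dense body, was named after its value was seen. Its mean was 0.61 ± 0.46 (adjusted p = 0.032), and the call was lost without prep 2 (0.053), prep 3 (0.10) or prep 4 (0.062), with centred arrays (0.050), with centred and scaled arrays (0.064) and with 1 value per title date (0.052).

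Around the attachment lie the basement membrane, the fibrous organelles that carry the pull through the epidermis to the cuticle, and the sarcomere. Of 8 tested fibrous organelle genes, 3 had negative calls and none a positive one, beside 21.2% negative and 23.2% positive calls over all genes (median of the means -0.41). The matrix receptor gene let-805, which encodes myotactin, had -0.63 ± 0.56 (SD, n = 4; limma adjusted p = 0.042) and lost its call without prep 1 (0.12), prep 2 (0.16) or prep 4 (0.055). The ankyrin repeat gene vab-19 had -0.69 ± 0.36 (adjusted p = 0.012, and 0.052 without prep 2). The list held 1 negative call without prep 2 and 1 without prep 4. Calls of either sign over all genes fell there too, from 6639 to 4982 and 5233.

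Of 17 basement membrane genes, unc-52 among them, 4 were called negative (23.5%, near the 21.2% of all genes) and 1 positive (5.88%, beside 23.2% of all genes), with a median of -0.29. The agrin gene agr-1 had a mean of -1.04 ± 0.52 (SD, n = 4; limma adjusted p = 0.0043), and the nidogen gene nid-1 had 1.05 ± 0.35 (adjusted p = 0.0017), positive on all arrays. Of 21 body wall sarcomere genes, 3 were called negative (14.3%, under the 21.2% of all genes) and 2 positive (9.52%, beside 23.2%), with a median of -0.13. The genes hlh-1 and egl-19 were left out of this list as no structural genes, while unc-68 was kept. A negative ratio was called for hlh-1 (mean -0.62, limma adjusted p = 0.0080). The troponin I gene tni-1 had -0.88 ± 0.63 (adjusted p = 0.015), and the ryanodine receptor gene unc-68 had -0.81 ± 0.65 (adjusted p = 0.024). The positive calls, named after their values were seen, were the troponin genes unc-27 at 0.78 ± 0.41 (adjusted p = 0.0090) and mup-2 at 0.72 ± 0.34 (adjusted p = 0.0091), and both were called whichever prep was left out. The sarcomere's negative calls were 1 without prep 1 and 0 without prep 4, and its positive calls were 2 and 3. Over all genes, calls of either sign fell from 6639 to 5796 and 5233. Their shares by sign were not taken. Limma's adjusted p for tni-1 was 0.053 without prep 2 and 0.066 without prep 4, and for unc-68 it was 0.066 without prep 1, 0.094 without prep 4 and 0.054 with 1 value per title date.

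**Figure D3:**
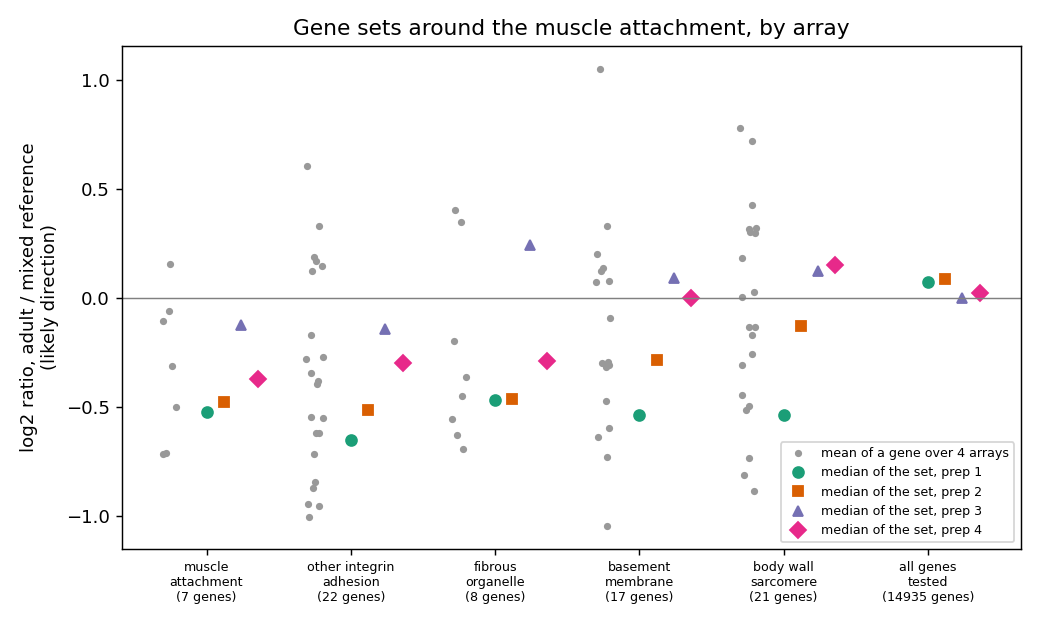
Log2 ratios (y axis) of the muscle attachment genes, 4 neighbouring gene sets and all genes tested; grey dots are the means of single genes over 4 preps and coloured symbols are the median of the set on each array. The median of the attachment genes lies below 0 on all arrays, between -0.52 on prep 1 and -0.12 on prep 3, while the sarcomere median runs from -0.54 on prep 1 to 0.15 on prep 4.

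The arrays differed in how the muscle genes stood. The median of the 7 members was -0.52, -0.48, -0.12 and -0.37 on preps 1 to 4, below 0 on every array, while the median of all genes lay between 0.00 and 0.09. The sarcomere genes had medians of -0.54, -0.13, 0.13 and 0.15 on preps 1 to 4. On prep 4 the median of the attachment genes was thus -0.37 and that of the sarcomere genes 0.15. The sets overlapped there. Single members ran from -1.18 for unc-97 to 0.37 for atn-1, and sarcomere genes from -1.49 for tni-1 to 0.86 for unc-27. On prep 1 the medians of both sets were low. The myosin heavy chain gene unc-54, named after its values were seen, was at -1.83 on prep 1, against 0.47 on prep 4. Its SD (1.01) was the largest of the tested sarcomere genes. The gene tni-1 of that set went otherwise, at -0.84 on prep 1 and -1.49 on prep 4. The gene unc-27 was above 0 on prep 1, at 0.23. That was still its lowest value, against 0.86 on prep 4.

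The labels give adults and name no tissue. Since the table holds ratios without signal levels, a muscle origin of the RNA could not be checked by the level of muscle markers. Of 8 listed body wall muscle markers 7 were tested, with 1 called negative and 1 positive, and their median ranged from -1.22 on prep 1 to 0.15 on prep 4. All of these 7 except hlh-1, the negative call, are also among the sarcomere genes above, and the positive call is again unc-27. Of 5 germline markers all were called positive, with array medians from 1.10 to 1.90, and of 5 neuronal markers 3 were called negative, with array medians from -1.30 to -0.81. For the somatic gonad sheath, which also contracts, 1 of 4 markers was called negative and none positive (array medians -0.39 to 0.28). Of 5 pharyngeal muscle markers 3 were called negative (-0.90 to -0.64). Of 4 epidermal markers 3 were called negative (-2.13 to -1.58), and of 4 intestinal markers 1 was called positive (-0.15 to 0.93). These counts are to be read beside the 21.2% negative and 23.2% positive calls over all genes. The negative share of the sheath markers and the positive share of the intestinal markers lay close to those. Both shares of the body wall muscle markers lay under them. With so few markers per tissue, such shares are a description only. The part of the listed tissues in the ratios of the attachment genes was not tested.

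As a measure of likeness, the root mean square difference over the 4 arrays from the per-array median of the members was taken. It was smallest for tbx-38 (0.056), C26D10.4 (0.057) and snt-5 (0.058) among the genes that are no members. Among the members it was 0.16 for unc-112, 0.25 for pat-6 and at most 0.56, for atn-1. With 4 values per gene and 14943 genes, such closeness is a description of the arrays only.

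Over the whole table, between 21243 and 21501 of 21632 probes had a value on each array, and the arrays correlated over the probes with Pearson's r from 0.66 to 0.76. The median SD of a gene over the 4 arrays was 0.31 on the log2 scale. The SDs of the members lay between 0.21 for pat-2 and 0.46 for unc-97. The labels name separate preps and do not say whether their cultures were separate. The p-values therefore cover the spread among 4 preps, which may be technical, and leave out the spread of the reference.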

How the data were processed

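The authors deposited 1 log2 ratio per probe and array; per the labels, channel 2 held adult RNA and channel 1 the mixed reference. The unit was read from the values, since at least 99.934% of the values of each array turned into ratios of 3 decimals (within 0.00001) when 2 was raised to them. Scanner, dyes, background correction, spot filter, normalization and the ratio's numerator are not given in the labels or files used here. Array medians lay between -0.0043 and 0.0496; no centring was added.

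GEO's platform annotation gave 1 symbol for 16450 of 21632 probes, several for 247 and none for 4935. Symbols were updated through the RefSeq genes of assembly WBcel235 (16360 probes by gene ID, 8 by accession, 82 kept). No coordinates are given, as no build is named. Probes of a gene were averaged, which gave 14943 genes. Genes with at least 3 values entered a fit by limma 3.58.1 (R 4.3.3; intercept, lmFit, eBayes). The fit was tested on simulated data with 200 changed genes among 14935. Changes of 0.5, 1, 2 and 3 on the log2 scale were called for 8%, 64%, 90% and 94% of their genes, with 7 false calls among 135. Far fewer genes changed there than were called here (6639), so these shares do not carry over directly to the members.

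The members and lists were chosen with earlier results of these data known. From the lists, hlh-1 and egl-19 (sarcomere) and mgl-1 and crt-1 (fibrous organelles) were left out of the counts as no structural genes. The text names every measured member, 6 direct partners, the 3 other partners and, in each other list, 2 genes whose mean was largest in size, and the 3 genes nearest the members; other names were chosen after their values were seen. Alternatives were centring, scaling, the minimum number of arrays, a robust prior, array weights, the probe summary, a minimum size, an exact sign-flip test and leaving out each prep. The block by title date could not be estimated by limma with 3 dates on 4 arrays. Averaging the 2 arrays of one date was added in its place after seeing the data.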

Additional observations from a re-analysis of the deposited data

Results flagged for a closer look

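In 34 groups of 4 array values, each searched for 1 array far from the rest, 2 such arrays were found, where chance gives about 1 in 20, or 1.7 groups. Neither belongs to the 9 muscle attachment genes. The alpha integrin gene ina-1 had 0.36 on prep 4, and its other values were 0.09 to 0.11. The nidogen gene nid-1 had 1.56 on prep 3, and its other values were 0.84 to 0.94.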

How the results depend on the processing

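The count of negative calls among the members was 3 with arrays centred, centred and scaled, values on all 4 or at least 2 arrays, the robust prior, array weights, the median of probes and 1 value per title date. It was 2 with a minimum mean of 0.5 in size, which pat-6 misses, and from 1 to 3 with 1 prep left out. It was 1 without prep 2 and without prep 4, where pat-2 alone was called. The calls over all genes fell as well, from 6639 with all arrays to 4982 without prep 2 and 5233 without prep 4. Without prep 1 and without prep 3, where the members' count stayed at 3, the calls over all genes were 5796 and 5624. No setting gave a positive call. The median of the members lay between -0.39 and -0.31 in the settings that kept all arrays, and from -0.48 to -0.22 with 1 prep left out. With 1 prep left out, the mean of pat-3 ran from -0.239 to 0.089 (above 0 without prep 1) and that of pat-4 from -0.179 to 0.0887 (above 0 without prep 2), with no call; the cause was not tested. The negative calls of the other integrin adhesion genes ranged from 7 to 12 over 12 settings. The share of negative calls over all genes was not taken in each setting. The exact sign-flip test cannot reach 0.05 with 4 arrays and calls no gene. No paired analysis was possible because the arrays form 1 group. Signal over background is unknown, so dim spots, whose ratios may be drawn towards 0 if background was left in, could not be set aside.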
